A study of Mus musculus with 12 samples.

Results

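The 10 genes described here carry the core of bile acid synthesis, sensing and transport in the mouse liver: Cyp7a1, Cyp8b1, Cyp27a1 and Baat for synthesis and conjugation, Nr1h4 and Nr0b2 for control, Abcb11 and Abcb4 for export into bile, and Slc10a1 and Slco1b2 for uptake from blood. They were chosen by symbol from 22180 genes that had a probe set of their own, each of the 10 had exactly 1 such probe set, and all 10 were among the 14031 genes bright enough to be tested. Liver RNA was profiled by Affymetrix Mouse Gene 2.0 ST microarray in 4 groups of male mice on a C57BL/6 background, labelled as 8 to 10 weeks old. The groups were wild-type (Pparβ/δ+/+) mice on liquid control diet, wild-type mice on liquid ethanol diet, Pparβ/δ-null (Pparβ/δ-/-) mice on control diet and Pparβ/δ-null mice on ethanol diet, with 3 arrays each. Every mouse first took the control liquid diet during an acclimation week, and the diets then ran for 16 weeks, with 4% (v/v) ethanol in the ethanol diet. The design states 10 mice per group. The labels give 1 sample per array and do not say whether each came from a separate mouse, so the p-values reflect the spread of the samples, which may be technical. How the null allele was built and the line bred is not stated in these sources, so loss of the receptor and other differences between the lines cannot be told apart.

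Bile acids are made from cholesterol in hepatocytes. Cyp7a1 is the rate-limiting enzyme of the classic route, Cyp27a1 acts on the sterol side chain and opens the alternative route, Cyp8b1 sets the share of cholic acid, and Baat joins the finished acid to taurine or glycine. The nuclear receptor FXR, encoded by Nr1h4, is activated by bile acids, induces Nr0b2, whose product SHP is a repressor of Cyp7a1 and Cyp8b1, and induces the bile salt pump Abcb11. PPARβ/δ, the product of Ppard, is a nuclear receptor for fatty acids and related ligands.

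All values are log2 of the deposited intensity, and differences are on that log2 scale with a standard error (SE) from limma's fit across all genes. Calls needed an adjusted p under 0.05 (Benjamini-Hochberg over the 14031 tested genes). The first principal component of these genes, 32.3% of the variance, separated the genotypes. Wild-type control array 2 stood farthest from its group. Without it, 811 rather than 13 genes were called for ethanol in wild-type mice, and leaving out any other array gave 0 to 32. The median of 66 small nucleolar RNA probe sets was 7.24 to 7.78 in wild-type control mice and 8.31 to 9.05 on the other arrays. The 8 hepatocyte markers averaged 12.11 to 12.30 on every array, with none called in any comparison. Ppard lay between 7.64 and 8.06 with overlapping group ranges, which does not check the genotype labels, because the position of its probes relative to the disrupted part is not stated in these sources.

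Sequences before the start site are shown for 3 of the genes, a synthesis enzyme, the repressor and the exporter, because each holds 1 of the searched motifs in the 250 bases upstream. RefSeq's promoter table (GRCm38.p6) held 8 of the 10 genes in 9 windows; Cyp7a1 and Baat were not among them. Both strands were searched for the FXR inverted repeat (AGGTCA and TGACCT with 1 base between), the direct repeat read by PPARs (AGGTCA repeated with 1 base between), CAAGGTCA (NR5A2), CAAAGTCCA (HNF4A), TTATGTAA (the D-box), CACGTG (the E-box) and the single AGGTCA motif, which also lies inside both repeats and the NR5A2 motif. The capitals mark the match, and each sequence runs 5′ to 3′ on the gene's strand.
Cyp8b1, chr9:121916306-121916555, minus strand: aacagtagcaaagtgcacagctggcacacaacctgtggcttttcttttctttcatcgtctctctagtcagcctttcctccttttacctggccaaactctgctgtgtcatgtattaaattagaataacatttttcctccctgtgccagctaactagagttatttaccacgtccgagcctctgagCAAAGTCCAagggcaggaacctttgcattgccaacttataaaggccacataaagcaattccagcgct
Nr0b2, chr4:133553126-133553375, plus strand: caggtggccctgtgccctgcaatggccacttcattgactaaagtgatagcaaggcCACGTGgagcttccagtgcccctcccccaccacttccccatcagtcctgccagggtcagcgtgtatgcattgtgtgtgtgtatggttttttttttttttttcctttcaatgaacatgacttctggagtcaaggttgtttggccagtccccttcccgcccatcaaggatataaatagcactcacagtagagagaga
Abcb11, chr2:69342617-69342866, minus strand: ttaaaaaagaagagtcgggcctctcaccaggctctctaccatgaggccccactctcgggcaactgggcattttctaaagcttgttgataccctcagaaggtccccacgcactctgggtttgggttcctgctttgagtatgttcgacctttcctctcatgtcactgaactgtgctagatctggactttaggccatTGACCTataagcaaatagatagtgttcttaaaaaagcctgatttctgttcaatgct
In Cyp8b1 the HNF4A motif began at position -67, and 0.384% of 32851 windows of this length held it. In Nr0b2 the E-box, the motif bound by CLOCK and BMAL1 among others, began at -195, and 6.02% of all windows held one. In Abcb11 the AGGTCA motif, read as TGACCT on this strand, began at -56, against 14.0% of all windows. AGGTCA matches also lay at -81 in Slco1b2, -214 in Nr1h4 and -87 in 1 of the 2 Slc10a1 windows. No window of these genes held an exact match to the FXR inverted repeat, the PPAR direct repeat, the NR5A2 motif or the D-box. Exact matches were in 0.00609%, 0.0335%, 1.33% and 0.819% of all windows. Matches with a changed letter were not searched. In Abcb11 the letters aggcca lie 1 base before TGACCT, which differs from the searched inverted repeat by 1 letter. No share of all windows was counted for such a near match, and the other windows were not searched for one. A match is a description of the letters only.

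Across the 7 comparisons the design allows, limma called 0 of the 10 genes, with ethanol or between genotypes. The widest pairwise differences were in Cyp7a1, which was 1.84-fold lower on ethanol in null mice and 1.70-fold higher in null than wild-type mice on control diet, and in Nr0b2, which was higher by 0.68 (log2) on ethanol in wild-type mice. Neither passed the threshold. The background of calls over all genes was 0.0927% for ethanol in wild-type mice, 0.00713% for ethanol in null mice, 5.1% for null against wild-type on control diet and 1.79% on ethanol diet. It was 0.0143% for the interaction, 0.0143% for ethanol averaged over genotypes and 7% for genotype averaged over diets. These shares moved with single arrays. On control diet the 715 called genes became 193 without null control array 2, 312 without wild-type control array 3, 318 without wild-type control array 1 and 1306 without wild-type control array 2. On ethanol diet the 251 became 108 without wild-type ethanol array 3, 111 without wild-type ethanol array 2, 132 without null ethanol array 1 and 155 without null ethanol array 2. Averaged over diets the 982 became 621 without wild-type ethanol array 3 and 629 without null control array 2.

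At an unadjusted p under 0.05, 3 of the 10 genes differed with ethanol in wild-type mice against 14.5% of all genes, and 1 of 10 in null mice against 12.2%. On control diet 4 of 10 differed by genotype against 22.1%, and on ethanol diet 1 of 10 against 16.2%. For the interaction it was 0 of 10 against 15%, for averaged ethanol 3 of 10 against 12.1% and for averaged genotype 3 of 10 against 21.4%. Counts over 10 genes are small. The arrays of 4 genes did not overlap between diets in wild-type mice, against 19.4% of all genes, and those of 1 gene did not in null mice, against 18.6%. Between genotypes the count was 2 on control diet against 24.7% and 1 on ethanol diet against 24.1%. Over both diets or both genotypes together 0 of the 10 separated, against 0.556% of all genes for ethanol and 3.58% for genotype. The median difference of the 10 genes was -0.12 for ethanol in wild-type mice, where the median of all genes was -0.01, and -0.09 in null mice, against -0.05.

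**Figure D1:**
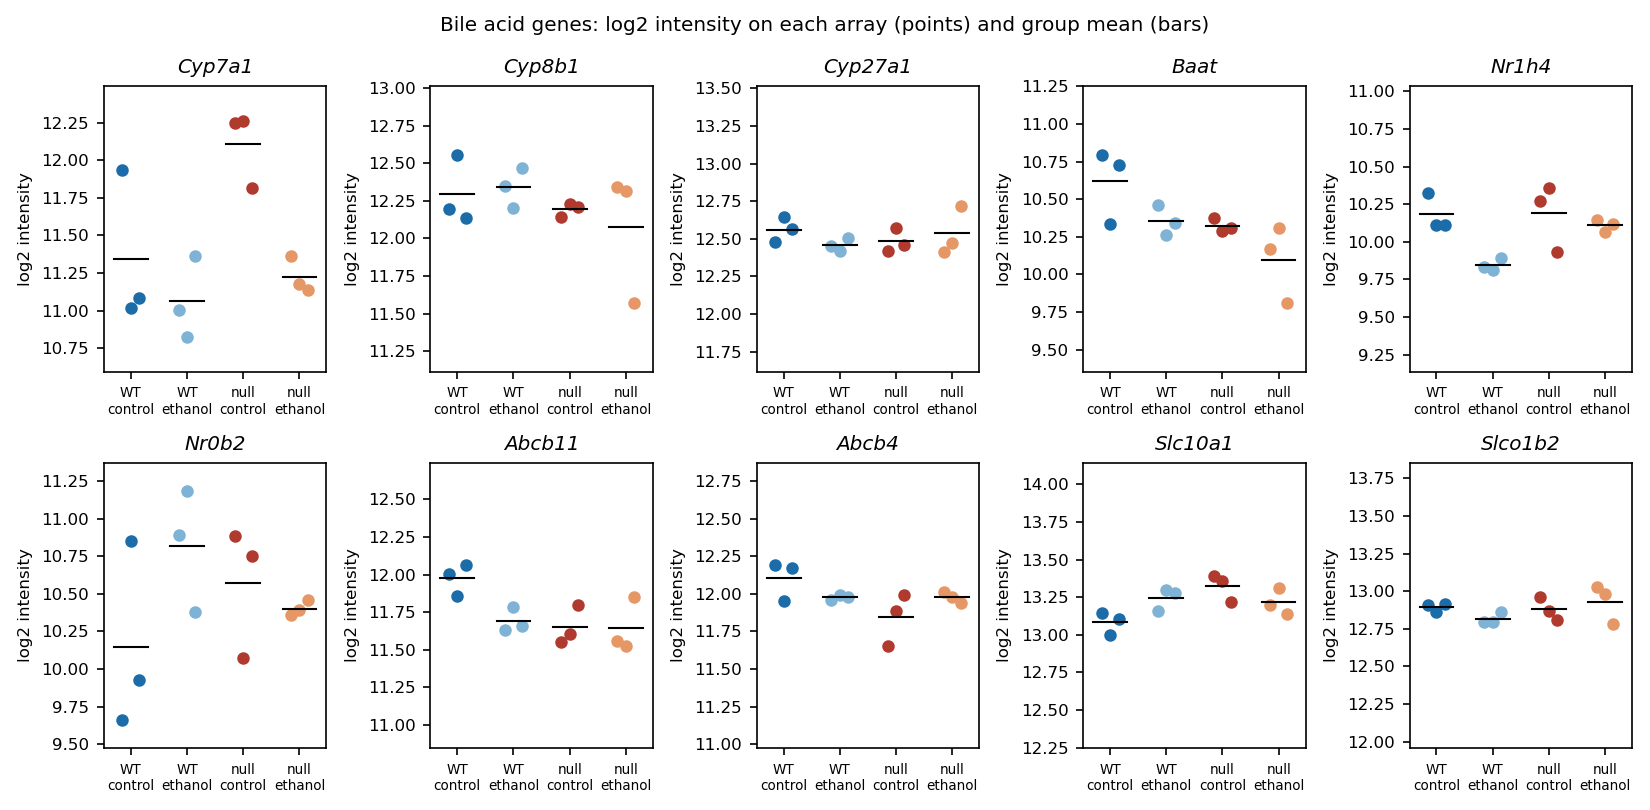
Log2 intensity of the 10 genes on each of the 12 arrays (points) with the group mean (bars), by genotype and diet, 3 arrays per group; axes differ between panels in position and share 1 span. The null control arrays of Cyp7a1 sit between 11.81 and 12.26, above the null ethanol arrays at 11.14 to 11.37.

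**Figure D2:**
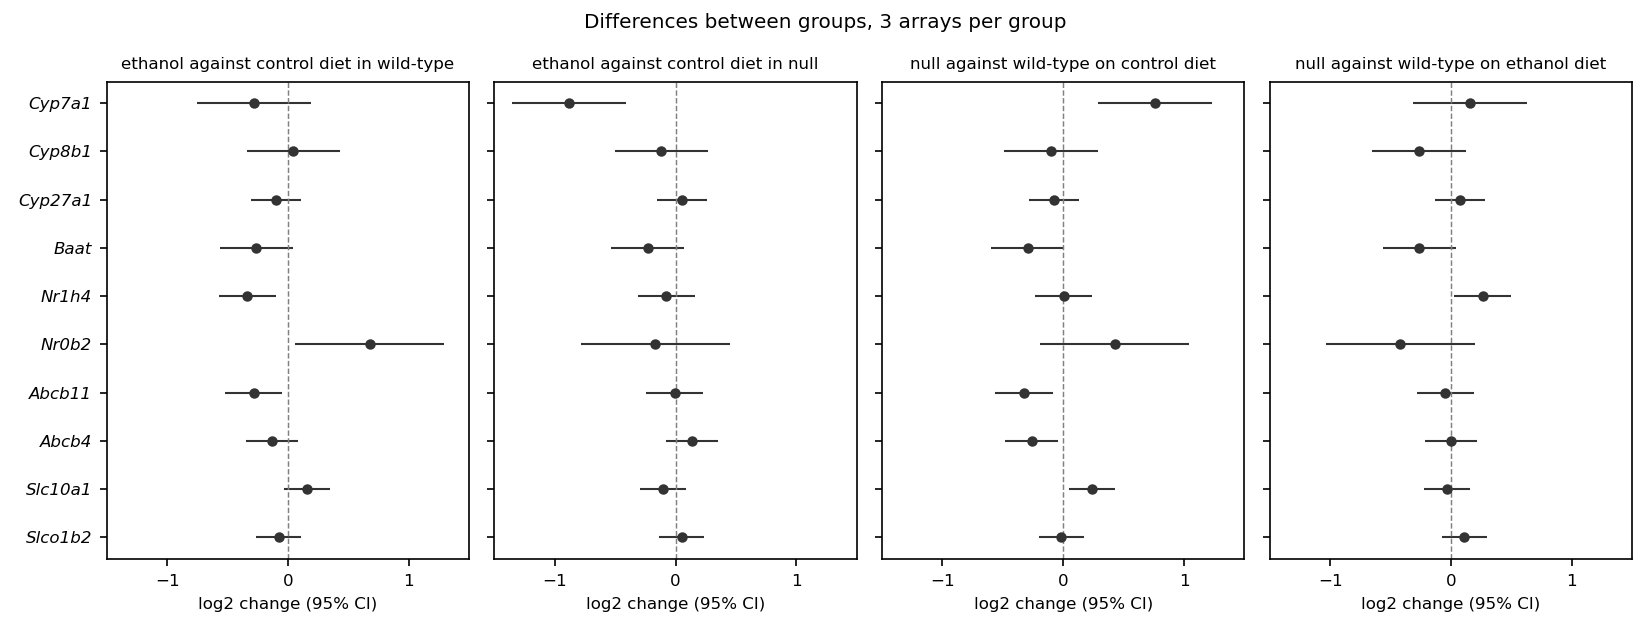
Log2 difference of each of the 10 genes (points) with its 95% confidence interval (lines) in the 4 pairwise comparisons, from limma's fit over 12 arrays. The interval of Cyp7a1 lies below 0 for ethanol in null mice, -1.35 to -0.41, and no gene passed the adjusted threshold in any panel.

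Cyp7a1 had its highest group mean in null mice on control diet. Its 3 arrays there read 12.25, 12.26 and 11.81 (mean 12.11 ± 0.25, SD, n = 3). In wild-type control mice they read 11.94, 11.02 and 11.08 (11.35 ± 0.51), in null ethanol mice 11.37, 11.18 and 11.14 (11.23 ± 0.12) and in wild-type ethanol mice 11.01, 10.83 and 11.36 (11.07 ± 0.27). The null control arrays were above every array of both ethanol groups and overlapped the wild-type control group only through that group's array 1; the other 3 groups overlapped one another. Ethanol went with a difference of -0.88 ± 0.22 (SE) in null mice (limma adjusted p = 0.253) and -0.28 ± 0.22 in wild-type mice (adjusted p = 0.584), and the interaction was -0.60 ± 0.31 with a 95% interval of -1.27 to 0.07 (adjusted p = 0.374). Averaged over genotypes the ethanol difference was -0.58 ± 0.15 (adjusted p = 0.231).

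By genotype, Cyp7a1 differed by 0.76 ± 0.22 on control diet (limma adjusted p = 0.0623), by 0.16 ± 0.22 on ethanol diet (adjusted p = 0.775) and by 0.46 ± 0.15 averaged over diets (adjusted p = 0.0966). Wild-type control array 1 read highest in its group, so leaving it out widens the difference. Without it the difference on control diet was 1.06 (limma adjusted p = 0.00731) and the averaged one 0.61 (adjusted p = 0.0094), both past the threshold. Over all alternatives the adjusted p on control diet ran from 0.00731 to 0.200. Without the same array the ethanol difference in wild-type mice was 0.01. Cyp7a1 is among the genes that follow the liver's daily rhythm, and the clock list was read beside it. Of its 15 tested genes, averaged over diets, Arntl, Clock and Npas2 were lower in null mice and Per3, Hlf and Ciart higher, 6 in all, against 7% of all genes. On control diet 1 of the 15, Clock, was called, against 5.1%, and on ethanol diet 0, against 1.79%. The averaged count was 3 without wild-type ethanol array 3 or null ethanol array 1. The hour at which livers were taken is not stated in these sources, and its part in the Cyp7a1 values was not tested.

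Cyp8b1, Cyp27a1 and Baat moved within a narrower span. Cyp8b1 read 12.20, 12.56 and 12.13 in wild-type control, 12.35, 12.20 and 12.47 in wild-type ethanol, 12.14, 12.23 and 12.21 in null control and 12.35, 12.32 and 11.57 in null ethanol mice. The last of these, null ethanol array 3, was the lowest of the 12, and all 4 groups overlapped. Its differences lay between -0.26 and 0.05 in the 4 pairwise comparisons, with adjusted p from 0.513 to 0.935 in limma's fit. Cyp27a1 was the steadiest enzyme, with group means from 12.46 to 12.56 and a widest pairwise difference of -0.10 ± 0.10 for ethanol in wild-type mice (limma adjusted p = 0.664).

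Baat read 10.80, 10.33 and 10.73 in wild-type control, 10.46, 10.26 and 10.34 in wild-type ethanol, 10.37, 10.29 and 10.31 in null control and 10.17, 10.31 and 9.81 in null ethanol mice. The wild-type control group was highest by mean (10.62 ± 0.25, SD, n = 3) and the null ethanol group lowest (10.09 ± 0.26), and neighbouring groups overlapped. Averaged over diets Baat differed by -0.28 ± 0.10 between null and wild-type mice (limma adjusted p = 0.117), and averaged over genotypes ethanol went with -0.25 ± 0.10 (adjusted p = 0.359). Without wild-type control array 2 the genotype difference was -0.35 and passed (adjusted p = 0.0314). In that fit 1317 of 13982 genes were called, against 982 with all arrays. Leaving out each array in turn, the difference ran from -0.35 to -0.21 and limma's adjusted p from 0.0314 to 0.237.

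Nr1h4 and Nr0b2, receptor and repressor, had opposite signs with ethanol in wild-type mice. Nr1h4 read 10.33, 10.11 and 10.11 in wild-type control and 9.83, 9.81 and 9.89 in wild-type ethanol mice, so that every ethanol array was below every control array. In null mice it read 10.27, 10.36 and 9.94 on control diet and 10.15, 10.07 and 10.12 on ethanol, with overlap. The ethanol difference was -0.34 ± 0.11 in wild-type mice (limma adjusted p = 0.197) and -0.08 ± 0.11 in null mice (adjusted p = 0.787), and the interaction was 0.26 ± 0.15 (adjusted p = 0.438). Without null control array 3 the interaction was 0.13. On ethanol diet the null arrays were all above the wild-type arrays, by 0.26 ± 0.11 (adjusted p = 0.255).

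Nr0b2 was the most variable of the 10 genes. It read 9.66, 10.85 and 9.93 in wild-type control, 10.89, 11.19 and 10.38 in wild-type ethanol, 10.89, 10.07 and 10.75 in null control and 10.36, 10.39 and 10.46 in null ethanol mice. Wild-type control array 2 was close to the ethanol group, and the null ethanol arrays lay within 0.10 of one another. Its pooled SD within groups was 0.43, at the 98.4th percentile of tested genes, that of Cyp7a1 was 0.32 at the 96th and that of Cyp8b1 0.26 at the 91.4th, against a median of 0.14. Ethanol went with 0.68 ± 0.29 in wild-type mice (limma adjusted p = 0.303) and -0.17 ± 0.29 in null mice (adjusted p = 0.829), with an interaction of -0.84 ± 0.41 and a 95% interval of -1.72 to 0.03 (adjusted p = 0.351). Without wild-type control array 2 the ethanol difference in wild-type mice was 1.03 and passed (adjusted p = 0.0371), and without wild-type control array 1 it was 0.43 (adjusted p = 0.634).

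Abcb11, the bile salt export pump, was highest in wild-type control mice. Its arrays read 12.00, 11.86 and 12.07 there, 11.63, 11.79 and 11.66 in wild-type ethanol, 11.55, 11.61 and 11.80 in null control and 11.56, 11.52 and 11.85 in null ethanol mice. The wild-type control arrays were above every array of the other 3 groups, which overlapped one another. The margin was thin: the lowest wild-type control array was 11.8571 and the highest null ethanol array 11.8528. The difference was -0.28 ± 0.11 for ethanol in wild-type mice (limma adjusted p = 0.267), -0.01 ± 0.11 for ethanol in null mice (adjusted p = 0.985) and -0.33 ± 0.11 for genotype on control diet (adjusted p = 0.102). With limma's array weights the genotype differences of Abcb11 and Baat on control diet passed, at -0.36 (adjusted p = 0.0346) and -0.39 (adjusted p = 0.0496).

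Abcb4, which moves phosphatidylcholine into bile, read 12.19, 11.95 and 12.17 in wild-type control, 11.96, 11.99 and 11.98 in wild-type ethanol, 11.65, 11.88 and 11.99 in null control and 12.01, 11.98 and 11.94 in null ethanol mice. All groups overlapped. It differed by -0.26 ± 0.10 between genotypes on control diet (limma adjusted p = 0.144; -0.17 without null control array 1) and by 0.00 ± 0.10 on ethanol diet (adjusted p = 0.997).

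Slc10a1 and Slco1b2, the sinusoidal uptake carriers NTCP and OATP1B2, had the tightest replicates, with pooled SDs of 0.082 and 0.078 at percentiles 8.52 and 6.85 of the tested genes. Slc10a1 read 13.15, 13.00 and 13.10 in wild-type control, 13.16, 13.30 and 13.28 in wild-type ethanol, 13.39, 13.36 and 13.22 in null control and 13.20, 13.31 and 13.14 in null ethanol mice. The wild-type control arrays were below every array of the wild-type ethanol and null control groups, and reached the null ethanol group by 0.01. It differed by 0.24 ± 0.09 between genotypes on control diet (limma adjusted p = 0.129) and by -0.03 ± 0.09 on ethanol diet (adjusted p = 0.909), with an interaction of -0.27 ± 0.12 (adjusted p = 0.333). Slco1b2 had group means from 12.82 to 12.93. In wild-type mice its ethanol arrays, at 12.80 to 12.86, were just below the control arrays, at 12.87 to 12.91, a difference of -0.08 ± 0.09 (limma adjusted p = 0.726).

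Of 5 regulatory pairs tested across arrays, none passed after adjustment over the 5. Pooled over all 12 arrays, Nr0b2 and Cyp7a1 had r = -0.337 (permutation p = 0.284), and 0.00255 without the 2 arrays farthest from the median of Nr0b2. Nr1h4 and Nr0b2 had r = -0.616 (permutation p = 0.0335, adjusted 0.168), and -0.384 without the 2 farthest. Nr0b2 and Cyp7a1 ran in opposite order on the 6 wild-type arrays, with r = -0.810 (exact permutation p = 0.0528, adjusted 0.120) and rho = -0.943 (exact permutation p = 0.0167, adjusted 0.0833). On the 6 null arrays r was 0.169 (exact permutation p = 0.706) and rho -0.0857. Without the 2 arrays farthest from the median of Nr0b2, r was -0.998 in wild-type and 0.858 in null arrays, each over 4 arrays, and the difference between genotypes was not tested. As deviations from the group means over all 12 arrays, r was -0.696 (permutation p = 0.0880, adjusted 0.384). The other 4 pairs, Nr0b2 with Cyp8b1, Nr1h4 with Nr0b2, Nr1h4 with Abcb11 and Cyp7a1 with Cyp8b1, had smallest adjusted p-values for r of 0.120 in wild-type and 0.753 in null arrays, by the same exact permutation tests.

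All 45 pairs of the 10 genes were also computed as deviations from the group means. Of these, 21 were positive and 24 negative, 3 had a permutation p under 0.05 and 0 passed after adjustment over the 45 (smallest adjusted p 0.243). Cyp7a1 and Nr1h4 had r = 0.791 (permutation p = 0.00540) and rho = 0.895 (permutation p = 0.0154), and r was 0.810 without the 2 farthest arrays. Cyp8b1 and Abcb11 had r = -0.813 (permutation p = 0.0278) and rho = -0.713 (permutation p = 0.0563), and r was -0.679 without the 2 farthest arrays. Cyp7a1 and Slco1b2 had r = 0.428 (permutation p = 0.034) and rho = 0.566 (permutation p = 0.0432), and r was 0.503 without the 2 farthest arrays.

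**Figure D3:**
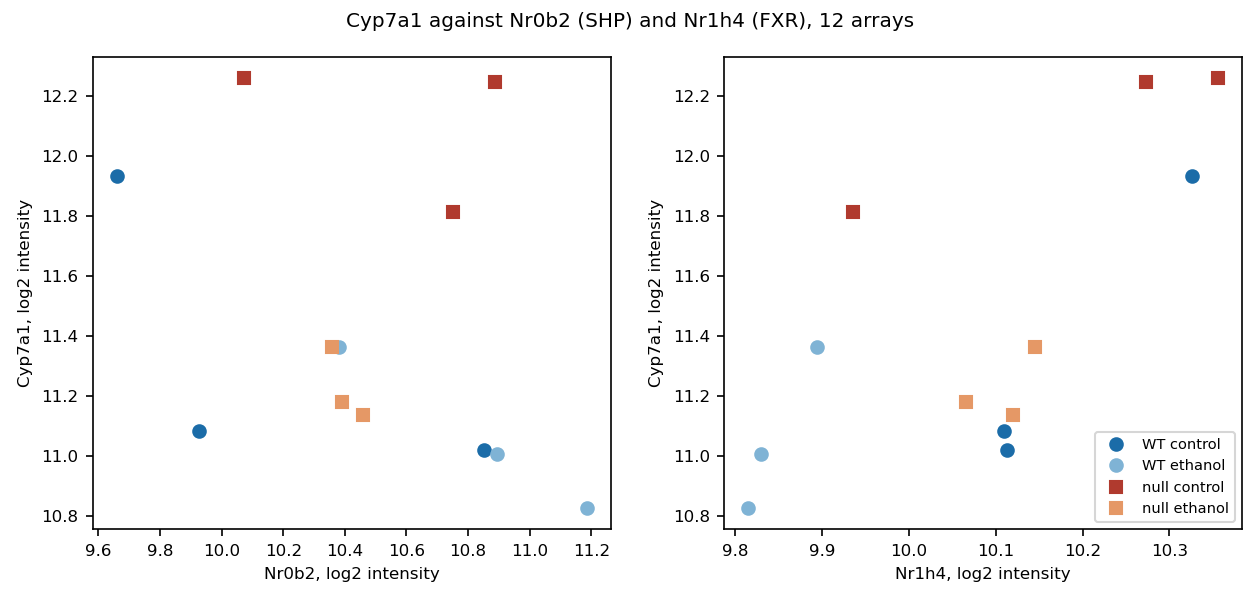
Log2 intensity of Cyp7a1 (vertical) against Nr0b2 (left) and Nr1h4 (right) on the 12 arrays, by group. In the left panel the wild-type arrays run from wild-type control array 1 at Nr0b2 9.66 and Cyp7a1 11.94 down to wild-type ethanol array 2 at 11.19 and 10.83, and the null arrays follow no such order (r = 0.169).

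For 4 of the genes, the 3 tested genes with the highest r over the 12 arrays were listed among 12872 genes, as a description with no test, since the arrays share groups. For Cyp7a1 they were Lamb1 (r = 0.924), Cc2d2a (0.908) and Tstd3 (0.899). For Cyp8b1 they were Tlcd4 (r = 0.902), Wasl (0.900) and Slc25a20 (0.885), and for Nr0b2 Defa21 (r = 0.859), Btnl2 (0.858) and Atg13 (0.840). For Abcb11 they were Tacc1 (r = 0.917), Atp8b1 (0.915) and Spin1 (0.913). Atp8b1, a phospholipid flippase of the canalicular membrane, is on the list of other bile acid genes too, and with group means taken out its r with Abcb11 was 0.814. By the same measure Tacc1 had 0.835 and Spin1 0.808, and all 3 were picked for their r on these same arrays.

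The wider list of other bile acid genes held 58 genes, 54 on the array and 51 tested. It covers other synthesis steps, transport, regulators and modification. Some of its genes are also on the clock list or are drug-metabolising enzymes, so it is not particular to bile acids. Averaged over diets, 4 rose and 2 fell in null mice, 11.8% against 7% of all genes, and on control diet 3 rose and 1 fell, 7.84% against 5.1%. None was called in the 5 comparisons of ethanol, of genotype on ethanol diet and of the interaction. At an unadjusted p under 0.05, 12 of the 51 differed with ethanol in wild-type mice, against 14.5% of all genes, and 7 in null mice, against 12.2%. It was 4 for genotype on ethanol diet against 16.2%, 4 for the interaction against 15% and 11 for averaged ethanol against 12.1%. For genotype it was 13 of the 51 on control diet against 22.1%, and 12 averaged over diets against 21.4%. Without wild-type control array 2, 1 was called for ethanol in wild-type mice, where 811 of all 13982 genes were called. In the same fit 2 were called for averaged ethanol, where 293 of all genes were. Without wild-type control array 3, 1 was called for genotype on ethanol diet, where 271 of all 13962 genes were. The median difference of the 51 was 0.06 averaged over diets, where that of all genes was 0.00.

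Cyp39a1 and Cyp7b1, both hydroxylases of oxysterols, changed in opposite directions. Cyp39a1 was higher in null mice by 0.68 (1.60-fold, limma adjusted p = 0.0194), and Cyp7b1, an enzyme of the alternative route, was lower by 0.60 on the log2 scale (1.52-fold, -0.60, adjusted p = 0.0290). Cyp39a1 read 9.89, 9.78 and 10.80 in wild-type control and 10.54, 10.15 and 10.61 in wild-type ethanol mice, against 10.57, 10.92 and 10.81 in null control and 11.10, 11.29 and 11.15 in null ethanol mice. Array 3 of each wild-type group reached the null range. Cyp7b1 read 11.80, 11.37 and 12.07 in wild-type control, 11.10, 11.93 and 11.36 in wild-type ethanol, 11.05, 11.35 and 10.99 in null control and 10.75, 10.79 and 11.10 in null ethanol mice. On each diet its null arrays were below its wild-type arrays, where 24.7% (control) and 24.1% (ethanol) of all genes did not overlap. On ethanol diet the highest null array was 11.0954 and the lowest wild-type array 11.0957. Neither diet alone gave a call for Cyp7b1 (limma adjusted p = 0.105 on control and 0.186 on ethanol diet) or Cyp39a1 (0.123 and 0.114).

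Cyp46a1, a cholesterol hydroxylase best known from brain, was higher by 0.36 (limma adjusted p = 0.0184) at a low level of 6.38 to 7.27, where the filter lay at 5.61 to 5.72. Abcc6, an efflux transporter of the basolateral membrane, was higher by 0.46 averaged over diets (adjusted p = 0.0132) and 0.62 on control diet (adjusted p = 0.0254). Fgfr4, the hepatic receptor for the intestinal hormone FGF15, was higher by 0.21 (adjusted p = 0.0376), and its 6 null arrays, 9.59 to 9.80, were all above its 6 wild-type arrays, 9.40 to 9.55. Slc10a5, a relative of Slc10a1, was lower, at -0.32 (adjusted p = 0.0202). On control diet the differences were 0.59 for Cyp46a1 (adjusted p = 0.0137), 0.30 for Fgfr4 (adjusted p = 0.0455) and -0.42 for Slc10a5 (adjusted p = 0.0377). On ethanol diet none of these 4 was called, with differences of 0.13 for Cyp46a1 (limma adjusted p = 0.617), 0.12 for Fgfr4 (0.474), -0.22 for Slc10a5 (0.323) and 0.31 for Abcc6 (0.298). The interaction was -0.45 for Cyp46a1 (adjusted p = 0.247) and passed for none of the 4.

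These calls held to unequal degrees. In 21 alternatives of the averaged comparison Abcc6 was called in 21, Cyp46a1 in 19, Cyp39a1 in 18, Slc10a5 in 17, Cyp7b1 in 12 and Fgfr4 in 10. The list's count of 6 was 2 without wild-type control array 1 or null control array 2, 1 without wild-type ethanol array 2, 3 without wild-type ethanol array 3 and 10 with array weights. The control-diet count of 4 was 0 without null control array 2 or with the 6 control-diet arrays alone, 1 with no filter on dim genes, 1 without wild-type control array 1 or 3, and 2 without any 1 of the wild-type ethanol arrays, null control array 3 or null ethanol array 2. Macrophage markers differed by genotype: 7 of 8 were called lower in null mice averaged over diets, against 7% of all genes (4 without wild-type ethanol array 3 or null ethanol array 1), with list means of 8.58 to 9.11 on wild-type and 7.83 to 8.64 on null arrays. Of 6 endothelial markers, Pecam1 and Tek were lower too, by the same comparison. In bulk liver RNA, fewer cells of a type and less RNA per cell cannot be told apart. The part of these markers in the bile acid values was not tested.

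**Figure D4:**
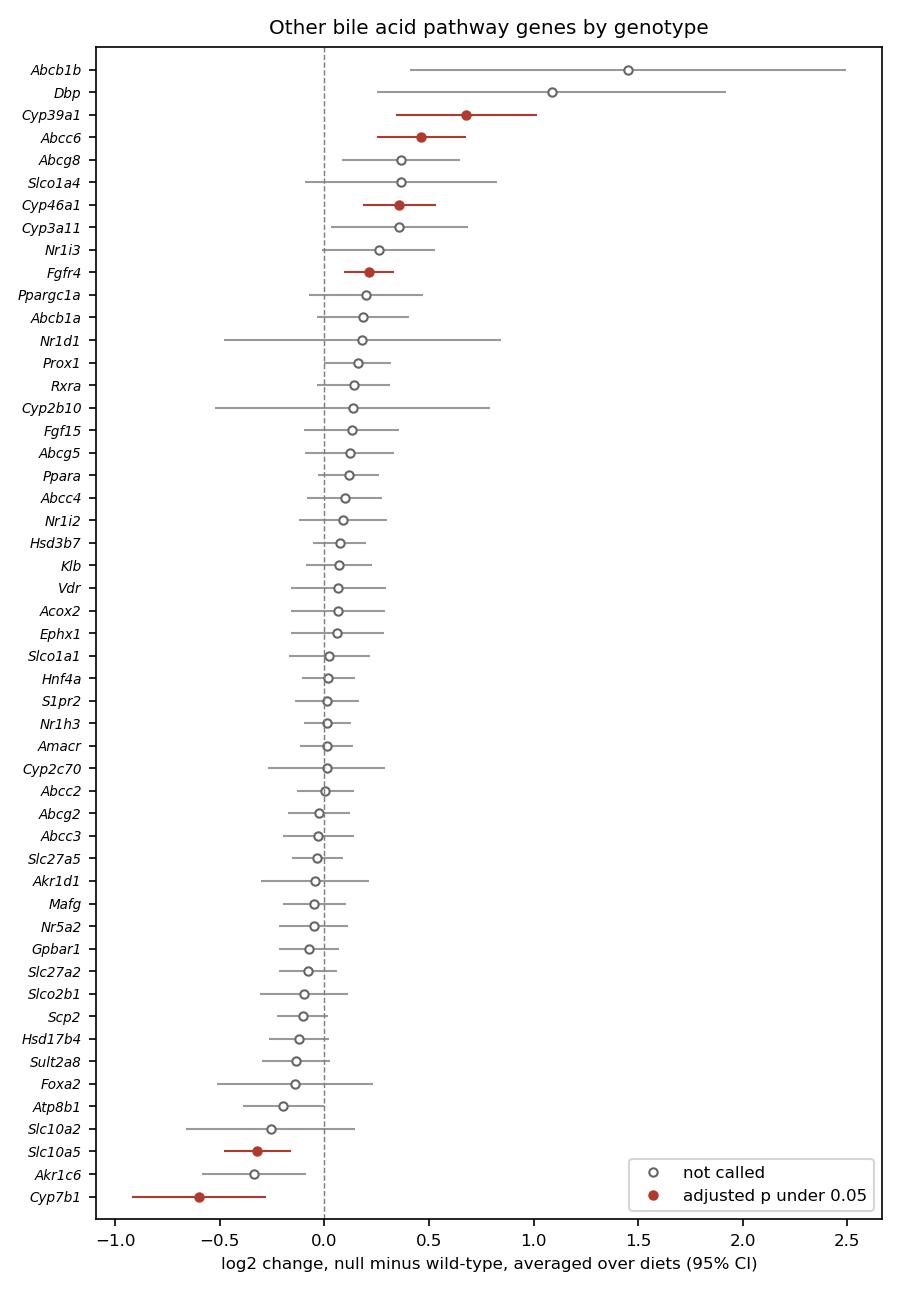
Log2 difference between null and wild-type mice, averaged over diets, of the 51 tested other bile acid genes (points) with 95% confidence intervals (lines). Red points mark the 6 called genes, with Cyp39a1, Abcc6, Cyp46a1 and Fgfr4 above 0 and Slc10a5 and Cyp7b1 below. Abcb1b, the topmost point, was below the filter on all 6 wild-type arrays, so its position is not the size of a difference.

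Among uncalled genes of the list, the smallest p-values with ethanol belonged to Cyp2b10, Slc10a2 and Cyp2c70. Cyp2b10, a drug-metabolising enzyme induced through the receptor CAR, read 6.51 to 8.28 on the ethanol arrays and 4.69 to 5.89 on the control arrays of both genotypes. It passed the filter through the ethanol arrays, and 5 of its 6 control-diet arrays were below the filter, so no size of difference is given; limma's adjusted p for ethanol was 0.147 (wild-type) and 0.248 (null). Slc10a2, the apical bile acid carrier of cholangiocytes and ileum, differed by -1.03 ± 0.26 in wild-type mice (adjusted p = 0.129). Cyp2c70, which makes the muricholic acids of the mouse, differed by -0.64 ± 0.18 with ethanol in null mice (adjusted p = 0.293). By genotype on control diet, Hsd17b4, a peroxisomal enzyme of side-chain shortening, differed by -0.26 ± 0.09 (limma adjusted p = 0.123). Slco2b1, an organic anion carrier, had an interaction of -0.57 ± 0.19 (adjusted p = 0.237). Averaged over diets, Akr1c6, a hydroxysteroid dehydrogenase, differed by -0.34 ± 0.11 between genotypes (adjusted p = 0.101). Abcb1b, a multidrug exporter, read 4.84 to 5.34 on the 6 wild-type arrays, all below the filter, and 4.77 to 7.96 on the null arrays, and was not called (adjusted p = 0.0948).

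The genotype comparison was also read along the chromosomes, taking the 10 tested genes on each side of each of the 10 genes in RefSeq's order. With 7% of all genes called averaged over diets, 6 of the 20 neighbours of Slco1b2 and 4 of the 20 of Nr1h4 were called, 2 each for Nr0b2 and Abcb11, 1 each for Cyp27a1, Baat and Slc10a1 and 0 for Cyp7a1, Cyp8b1 and Abcb4. Beside Slco1b2 they were Rerg (-0.60), Eps8 (0.40), Strap (0.51), Slc15a5 (-1.74), Pik3c2g (2.10) and Plekha5 (0.21), all on 1 side of it, while Slco1b2 itself differed by 0.05 ± 0.06 (limma adjusted p = 0.710). Beside Nr1h4 they were Igf1 (-0.46), Dram1 (-0.29), Slc17a8 (1.20) and Uhrf1bp1l (-0.26). Slco1b2 lies on chromosome 6 and Nr1h4 on chromosome 10. Loss of the receptor and other differences between the lines cannot be told apart here.

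**Figure D5:**
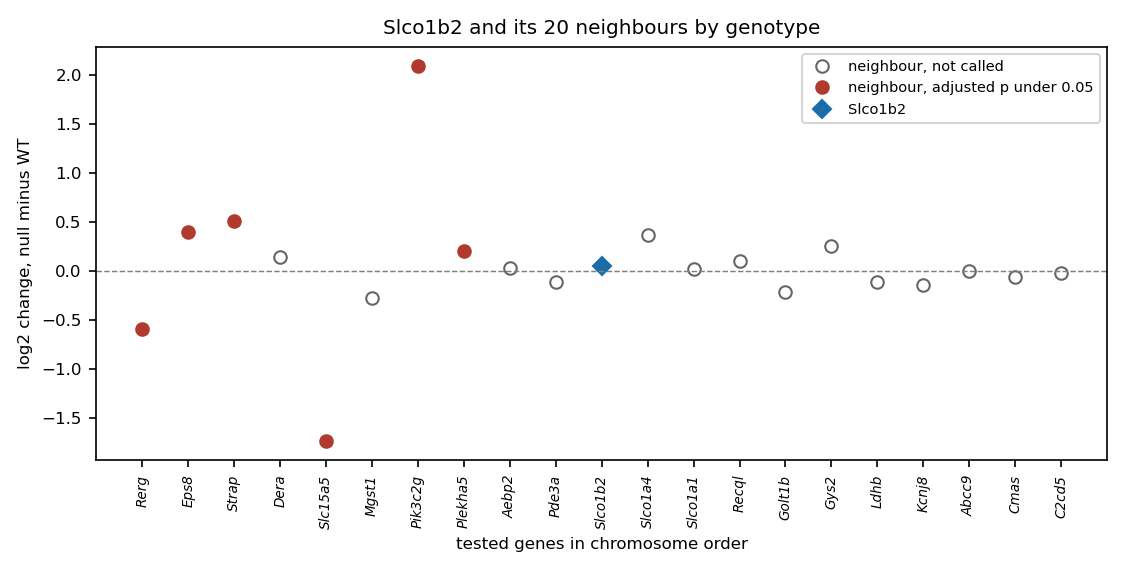
Log2 difference between null and wild-type mice, averaged over diets, for Slco1b2 (diamond) and the 20 tested genes nearest it in chromosome order (circles, filled where called). The 6 called neighbours lie on the left, from Slc15a5 at -1.74 to Pik3c2g at 2.10, and the diamond is at 0.05.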

How the data were processed

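Total liver RNA, 1 sample per array on 12 arrays, went onto Affymetrix Mouse Gene 2.0 ST microarrays, per the labels. The deposited values are a linear intensity per probe set and array, summarised and normalised by RMA, per the submitters' processing notes. Its version and the genome build are not stated in these sources. Of 41345 probe sets, 23521 name 1 gene, 1814 several and 16010 none in the platform annotation, and the first kind was used.

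Here log2 was taken with no offset, the probe set with the highest mean was kept per gene, and 14031 of 22180 genes above an array's 40th percentile on at least 3 arrays were tested. One mean per group was fitted over the 12 arrays with limma 3.58.1 (lmFit, contrasts.fit, eBayes; R 4.3.3), with 8 residual and 4.95 prior degrees of freedom, and p-values were adjusted by Benjamini-Hochberg over all tested genes. The 2 averaged comparisons and the interaction are contrasts of the same fit, so comparisons share arrays. Correlations used permutation tests: exact over 6 arrays of a genotype, random shuffles over all 12 arrays, and within groups for deviations from group means. Tests over 6 and 12 arrays shuffled across groups, so differences between groups enter their p-values. The limma fit was tested on simulated data with known differences, and the other steps were not. The number of arrays limits the precision.

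The genes, gene lists and tests were chosen with earlier results of these data known. Named are the 10 genes, other bile acid genes called in any comparison or among the 2 smallest p-values of a comparison, the 3 genes most like each of 4 members, called neighbours and called clock genes. The single AGGTCA motif and the counts over lists under alternatives were added after seeing the data. Alternatives were other normalisations, filters, an offset of 16, averaged probe sets, eBayes with trend and robust, array weights, a replicate block, the pair's 6 arrays alone and leaving out each array. Replicate numbers did not pair the arrays. Deviations of same-numbered arrays correlated with medians of -0.022, -0.0204 and -0.0499.

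Marker lists beside those in the report gave no call in limma's averaged genotype comparison: cholangiocyte, stellate, lymphocyte, exocrine pancreas and enterocyte genes. Tested were 4 of 8 cholangiocyte, 7 of 7 stellate, 3 of 6 lymphocyte, 1 of 5 exocrine pancreas and 3 of 5 enterocyte genes. With so few tested, the lack of calls does not show that these cell types were alike.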

Additional observations from a re-analysis of the deposited data

How the results depend on the processing

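No alternative called any of the 10 genes except array weights and leaving out 1 array. Array weights gave 2 calls for genotype on control diet and 2 averaged over diets, both times Baat and Abcb11. Leaving out each array in turn gave 0 to 1 call for ethanol in wild-type mice, 0 to 1 for genotype on control diet and 0 to 1 for genotype averaged over diets, and 0 in the other 4 comparisons. The replicate block gave 0 calls among the 10 genes in all 7 comparisons, with 9 genes of the whole table called for ethanol in wild-type mice, 613 for genotype on control diet and 884 averaged over diets; 1 of 12 arrays correlated best with its own number. Over the whole table the count for ethanol in wild-type mice was 13 as reported, 7 with no filter, 23 with the 60th percentile, 24 with trend and robust, 43 with the offset of 16 and 832 with array weights. For genotype on control diet it was 715, 393 with no filter, 226 with the pair's 6 arrays and 1631 with array weights. Array weights also gave 829 rather than 251 for genotype on ethanol diet and 1863 rather than 982 averaged over diets.

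The following differences changed sign, among them that of Cyp7a1 with ethanol in wild-type mice, -0.28 as reported, and the cause was not tested. Centring each array on its median gave 0.0131 for Slco1b2 by genotype on control diet, -0.0224 for Abcb4 by genotype on ethanol diet, -0.0202 for the Baat interaction, -0.0078 for Abcb4 by averaged ethanol and 0.0016 for Cyp27a1 by averaged genotype. Quantile normalisation gave 0.0424 for Abcb11 by ethanol in null mice, -0.0371 for Nr1h4 by genotype on control diet, 0.0013 for Abcb11 and 0.0079 for Slc10a1 by genotype on ethanol diet, and 0.0089 for Cyp27a1 by averaged genotype. Array weights gave 0.0356 for Cyp8b1 and -0.0229 for Cyp27a1 by ethanol in null mice, and 0.0884 for Cyp8b1, -0.0276 for Abcb4 and 0.0114 for Slco1b2 by averaged ethanol. Leaving out each array gave, for ethanol in wild-type mice, -0.4442 to 0.0139 for Cyp7a1 and -0.0349 to 0.1758 for Cyp8b1. For ethanol in null mice it gave -0.2043 to 0.0062 for Nr1h4, -0.1098 to 0.0677 for Abcb11, -0.2504 to 0.1364 for Cyp8b1 and -0.0409 to 0.1148 for Cyp27a1. For genotype on control diet it gave -0.1799 to 0.0308 for Cyp8b1, -0.0786 to 0.132 for Nr1h4 and -0.0566 to 0.0177 for Slco1b2. For genotype on ethanol diet it gave -0.0158 to 0.0187 for Abcb4, -0.1516 to 0.0131 for Abcb11, -0.0175 to 0.1381 for Cyp27a1 and -0.075 to 0.0094 for Slc10a1. For the interaction it gave -0.0727 to 0.1764 for Baat and -0.2959 to 0.0909 for Cyp8b1. For averaged ethanol it gave -0.1024 to 0.0909 for Cyp8b1, -0.0458 to 0.0385 for Abcb4, -0.037 to 0.0238 for Slco1b2 and -0.0714 to 0.0064 for Cyp27a1. For averaged genotype it gave -0.1178 to 0.1799 for Nr0b2 and -0.0481 to 0.0297 for Cyp27a1.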
